A study of Strongylocentrotus purpuratus with 4 samples.

Results

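The non-pigment cells of uninjected Strongylocentrotus purpuratus embryos were compared between 48 and 72 hours post fertilization (hpf), the gastrula and the early larva. A cell was taken when it had 400 to 2500 detected genes, and it was dropped as a pigment cell when the summed UMIs of LOC588806, LOC592500, LOC588371 and gcm reached both 3 UMIs and 0.3% of the UMIs of the cell. This kept 4689 cells at 48 hpf and 5976 cells at 72 hpf, 10665 of the 13866 cells of the uninjected libraries and of 17911 cells in the whole series. Both stages were normal embryos from which the outer epithelium was loosened and sieved away from the inner tissues to enrich for ectoderm, and each stage was 1 droplet library in its own sequencing lane. Stage, lane and library therefore cannot be told apart. In addition, whole 48 hpf embryos injected with a control morpholino (MO) or with the gcm MO, which were picked for the phenotype looked for and shared a lane, gave 3118 and 533 cells under the same rule. All eggs of the study were fertilized in 3-AT, an agent that keeps the fertilization envelope soft. The MO cells came from another dissociation and serve only as further 48 hpf levels beside those of the uninjected embryos.

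The ectoderm of the sea urchin larva is divided into an aboral epithelium, an oral field around the mouth, an apical organ and a ciliary band between the territories. The aboral epithelium is known for arylsulfatase and the small calcium-binding Spec proteins, the apical organ for foxq2 and NK2.1, and the oral field for Gsc, Not and the BMP antagonist chordin. Between gastrulation and the early larva these territories pass from patterning to differentiation, while the gut becomes regionalized and the skeleton grows.

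UMIs, each standing for 1 captured transcript molecule, were summed over the cells of a library and given as CPM, counts scaled to a total of 1000000 UMIs of the same cells. The sums were 14349868 UMIs at 48 hpf (a median of 3232 per cell) and 13723800 at 72 hpf (a median of 1681 per cell). The pigment rule removed 9.30% of the cells in the gene range at 48 hpf and 10.4% at 72 hpf, and its 4 genes were left at 204.7 and 158.7 CPM. The libraries shared 11 cell barcodes among the cells kept. With 1 library per stage there is no replicate and no test, and the 95% intervals given below (exact Poisson for levels, exact conditional binomial for ratios, Clopper-Pearson for shares of cells) cover counting error only. A gene was assessed when it had at least 100 UMIs over both stages, and it is said to rise or fall when its 72 hpf CPM was at least 2-fold above or below its 48 hpf CPM.

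Of 10525 genes assessed, 911 rose (8.66%) and 1024 fell (9.73%), so that 18.4% passed the fold in either direction. The counts of gene groups given below are to be read against these shares, and most groups hold few genes. Most groups other than the marker groups were formed after values were seen, so their counts and medians are only descriptions. The median ratio of 72 over 48 hpf was 0.948, with 5% of the genes below 0.383 and 5% above 2.77. Changes of at least 4-fold were seen in 318 genes that rose and 234 that fell, and of at least 10-fold in 118 and 73. Together the genes that rose took 5.03% of the UMIs at 48 hpf and 15.8% at 72 hpf, and MTa alone made up most of that gain. The genes that fell took 9.34% and 3.37%. The highest ratio that missed the upper threshold was 1.9993 and the lowest that passed it 2.001, so the count depends on where the line is drawn, and 182 genes lay between ratios of 1.9 and 2.1.

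**Figure D1:**
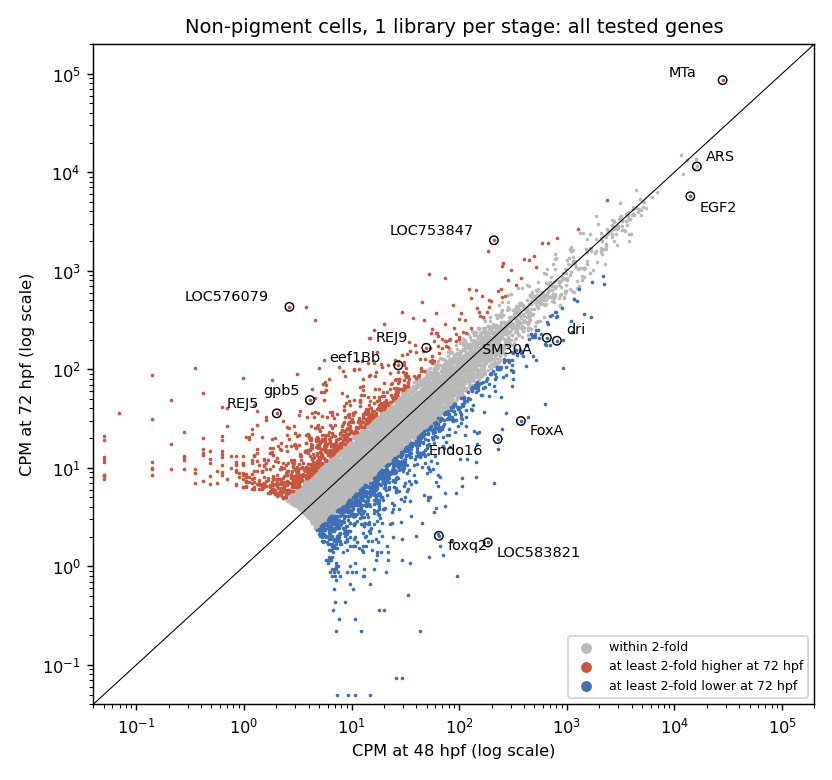
Summed level of each assessed gene in non-pigment cells at 48 hpf (x axis, CPM, log scale) and 72 hpf (y axis, CPM, log scale), with 1 point per gene, 1 library per stage and the line of equal levels; genes with 0 UMIs at a stage are drawn at the left or lower edge. The 911 genes that rose (red) and the 1024 that fell (blue) lie on both sides of the genes within 2-fold (grey), and MTa stands at the upper end of both axes, above the line.

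The further 48 hpf libraries placed the 72 hpf level outside the range of all 3 for most of these genes. For 846 of the 911 genes that rose, or 92.9%, the 72 hpf level was above all 3 libraries of 48 hpf, against 26.1% of all genes assessed. For 924 of the 1024 genes that fell, or 90.2%, it was below all 3, against 38.9% of all. The uninjected 48 hpf library is one of the 3, so these shares are partly fixed by the fold, and no library other than the uninjected one represents 72 hpf.

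Metallothionein MTa, a small cysteine-rich protein that binds zinc and copper, had the largest gain in CPM. It was at 28048 CPM at 48 hpf against 85882 at 72 hpf, a ratio of 3.06 (3.05–3.07). It thereby grew from 2.80% to 8.59% of all UMIs of non-pigment cells. In the whole embryos of 48 hpf it was at 33142 (control MO) and 22245 CPM (gcm MO), so the 3 libraries of 48 hpf lay close together and the 72 hpf library above them. MTB1, a second metallothionein gene, was at 772 and 1039 CPM (1.35), within 2-fold. How far reads of such similar genes were shared between them was not tested.

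The gain of MTa was seen across cells and was not carried by a few of them. In the median cell MTa took 0.958% of the UMIs at 48 hpf and 5.13% at 72 hpf. It took more than 10% of the UMIs in 225 cells (4.80%) at 48 hpf and in 1725 cells (28.9%) at 72 hpf. Cells were also split by ARS, with a cell called high in ARS when it had at least 3 ARS UMIs that made up at least 1% of its UMIs. This is a range and not a cell type, since 602 cells at 48 hpf and 1440 cells at 72 hpf lay within 1.5-fold of the line. In high-ARS cells MTa was at 49356 CPM at 48 hpf against 145506 at 72 hpf, a ratio of 2.95. In the other cells it was at 5261 and 30893 CPM, a ratio of 5.87 (5.81–5.94). MTa was thus higher in high-ARS cells at both stages. Since ARS itself was lower at 72 hpf and more cells lay near the line, cells could pass from one range to the other between the stages, and the ratios of the 2 ranges are not compared. In cells whose skeletogenic markers reached 3 UMIs and 0.3% of the UMIs, 23 at 48 hpf and 14 at 72 hpf, MTa was at 4173 and 12926 CPM (3.1, 2.71–3.54), so transcripts were also counted in cells that do not belong to the ectoderm. The part of free RNA in these values was not tested.

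**Figure D2:**
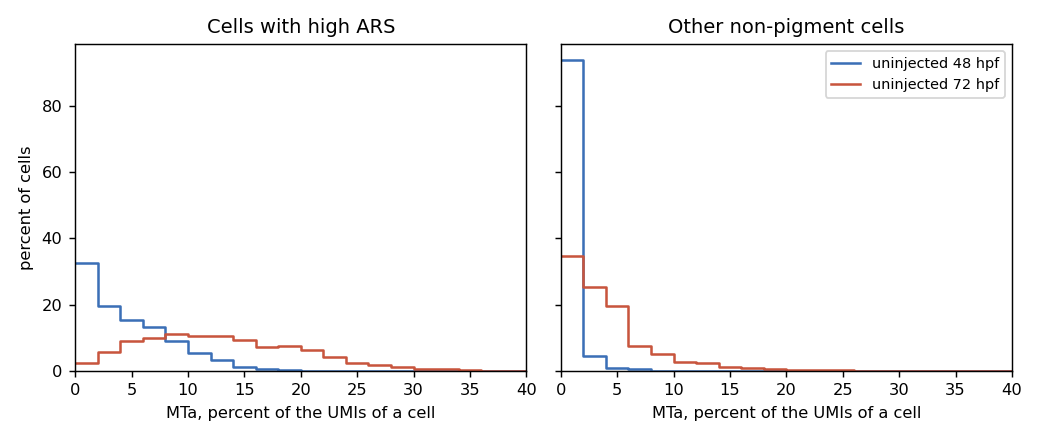
Share of cells (y axis, percent of the cells of the stage and panel) by the percent of a cell's UMIs that came from MTa (x axis, steps of 2 percent, up to 40), for high-ARS cells (left) and other non-pigment cells (right), with 48 hpf in blue and 72 hpf in red. The median moved from 3.77% to 12.2% in high-ARS cells and from 0.415% to 3.28% in the others.

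Genes named for EGF repeats were lower at 72 hpf, and EGF2 had the largest loss in CPM of all genes. EGF2 was at 14042 CPM at 48 hpf against 5701 at 72 hpf, a ratio of 0.406 (0.403–0.409). It was at 4528 (control MO) and 8655 CPM (gcm MO), so that its 72 hpf level lay inside the range of the 48 hpf libraries. Its ratio was 0.397 in high-ARS cells and 0.488 in the others, and the median cell held 1.13% and then 0.335% of its UMIs as EGF2. EGFIII, which encodes a fibropellin of the apical extracellular layer, went from 60.2 to 13.3 CPM (0.220, 0.187–0.259), below all 48 hpf libraries. The fibropellin gene egf1 was at 4221 and 3670 CPM (0.870) and did not pass the fold. In this group 2 of 3 genes fell.

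Of the other large shifts in CPM, 4 genes gained and 4 lost most after MTa and EGF2. LOC753847 rose from 210.3 to 2038 CPM, a ratio of 9.69 (9.33–10.1), against 126.3 (control MO) and 63.0 CPM (gcm MO). LOC585870 rose from 2351 to 5198 CPM (2.21). LOC591437 (1.29) and LOC753066 (1.49) gained in CPM but stayed within 2-fold. Within high-ARS cells the ratios were 9.20 for LOC753847, 2.06 for LOC585870, 1.18 for LOC591437 and 1.39 for LOC753066. Outside them, with the same limit of a line that cells can cross, LOC753847 was 23.3-fold, LOC585870 7.25-fold, LOC591437 4.45-fold and LOC753066 4.49-fold higher at 72 hpf. Among the losses, ARS, LOC100890099 (0.703), LOC582391 (0.791) and LOC373484 (0.864) all remained within 2-fold.

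The aboral ectoderm genes showed no change past 2-fold in either direction. Of 8 genes assessed none rose or fell, against 18.4% of all genes past the fold. The median ratio was 0.984 against 0.948 for all genes. ARS, which encodes arylsulfatase, a secreted enzyme of the aboral epithelium, was at 16161 CPM at 48 hpf against 11428 at 72 hpf (0.707, 0.703–0.712). The MO libraries had 9556 and 8036 CPM. SPEC1, a calcium-binding protein of the same cells, was at 3956 and 2341 CPM (0.592), against 5949 (control MO) and 4959 CPM (gcm MO). Its relatives spec2c (1.24) and spec2d (1.43) lay on the other side of 1, as did the transcription factor Tbx2/3, at 151.8 and 256.4 CPM (1.69, 1.60–1.78). The genes of this territory therefore did not move together. The Spec genes are close relatives, and reads shared between them were not resolved here.

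The share of cells high in ARS was 45.6% (44.2–47.0) at 48 hpf and 38.5% (37.2–39.7) at 72 hpf. Thinned to 500 UMIs per cell, which left out no cell, it was 46.4% and 39.2%. How much of each territory the enrichment recovered at each stage can set such a share. Free transcripts can add to the counts of ARS in any cell, and their part was not tested. In skeletogenic cells, which should lack it, ARS made up 0.0702% of the UMIs of the median cell at 48 hpf and 0.0982% at 72 hpf, whereas the median high-ARS cell held 2.62% and 1.74%. Outside high-ARS cells spec2d was 4.56-fold higher at 72 hpf (1.35-fold in high-ARS cells), spec2c 2.14-fold (1.14-fold) and Tbx2/3 2.07-fold (1.45-fold), while SPEC1 had a ratio of 1.53 outside and 0.546 inside. Cells with some ARS that miss the threshold belong to the other cells by this rule, and their part in these values was not tested.

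**Figure D3:**
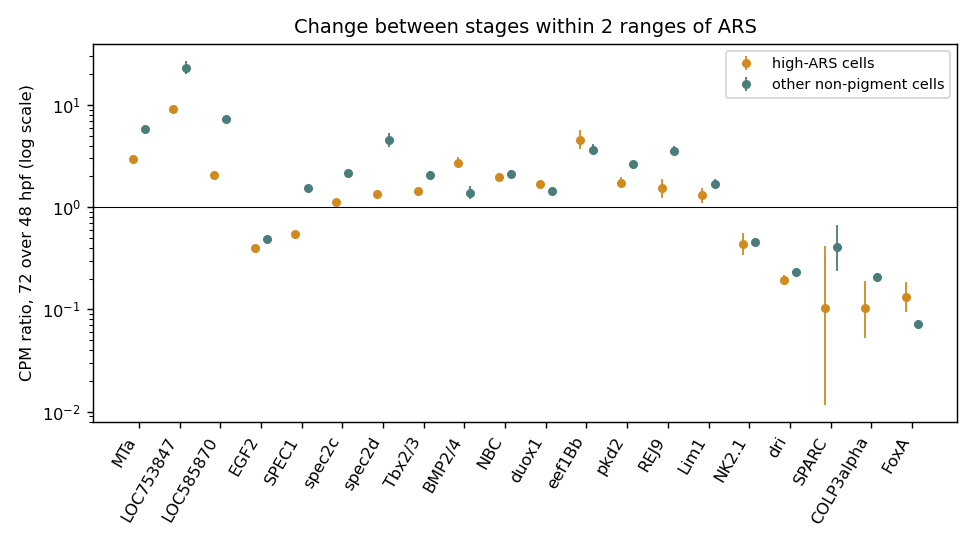
Ratio of CPM at 72 over 48 hpf (y axis, log scale) of 20 genes within high-ARS cells (orange) and the other non-pigment cells (green), with 95% counting intervals as bars and a line at equal levels. The ratio of spec2d is 1.35 inside and 4.56 outside, SPEC1 lies on opposite sides of the line, and FoxA, dri and COLP3alpha lie below 0.25 in both.

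The oral ectoderm genes moved in both directions, with chordin, Not and Gsc falling and the ligand BMP2/4 rising. Of 6 genes 3 fell and 1 rose, with a median ratio of 0.688. CHRD, the chordin gene, went from 64.2 to 6.56 CPM (0.102, 0.0814–0.127), and it was at 57.1 and 92.8 CPM in the control and gcm MO libraries. Not, a homeobox gene, went from 53.9 to 5.10 CPM (0.0946), against 44.7 and 46.4 CPM. Gsc, the goosecoid gene, went from 13.7 to 4.08 CPM (0.299), against 7.56 and 13.3 CPM. These 3 genes were below all 48 hpf libraries at 72 hpf. CHRD and Gsc varied among those libraries, and the control MO level of Gsc lay closest to its 72 hpf level. BMP2/4, the ligand that chordin binds, was at 47.3 CPM at 48 hpf against 96.1 at 72 hpf (2.03, 1.85–2.23), against 41.9 and 51.4 CPM. It passed the fold narrowly, since the ratio was 1.97 without skeletogenic and gut cells and 1.38 in cells outside the high-ARS range. Lim1 (1.62) and FoxG (1.08) stayed within 2-fold.

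Genes of the apical organ were lower at 72 hpf than in uninjected embryos of 48 hpf, though not in each case than in the MO libraries. The transcription factor foxq2, which marks the apical plate, had 930 UMIs at 48 hpf and 28 at 72 hpf, from 64.8 to 2.04 CPM (0.0315, 0.0208–0.0458). It was at 25.4 (control MO) and 17.1 CPM (gcm MO), and each 48 hpf library lay above the 72 hpf one. AnkAT-1, known in sea urchins from the apical tuft of long cilia, went from 15.5 to 1.82 CPM (0.118), with 7.22 (control MO) and 2.21 CPM (gcm MO). NK2.1 was at 148.4 and 71.0 CPM (0.478), with 101.1 (control MO) and 47.0 CPM (gcm MO). Only for foxq2 was the 72 hpf level well apart from every library of 48 hpf. The ciliary band gene hnf6 was at 240.8 and 205.2 CPM (0.852), and FoxJ1, a regulator of motile cilia, at 41.4 and 50.2 CPM (1.21). In this group 3 of 5 genes fell and none rose. AnkAT-1 and FoxJ1 were put into it after values were seen, and of the rest foxq2 and NK2.1 fell and hnf6 did not. In high-ARS cells alone the ratio of hnf6 was 0.419.

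None of the kinesin-II and cilia genes passed the fold over all cells together. Of all genes assessed 18.4% did, a share at which 4 genes tell little. In cells outside the high-ARS range alone, kap115 (2.04) and rib74 (2.19) passed it. Of 4 assessed, kap115 was at 15.2 and 26.3 CPM (1.73), rib74 at 18.8 and 33.5 CPM (1.79), KRP95 at 35.2 and 55.0 CPM (1.56) and KRP85 at 37.1 and 33.9 CPM (0.914). The gcm MO library of 48 hpf was above the 72 hpf level for each, at 30.4 CPM for kap115, 43.7 for rib74, 61.3 for KRP95 and 55.8 for KRP85, so none stood apart from the 48 hpf libraries. Kinesin-II is the motor that carries cargo along cilia, and KRP85, KRP95 and kap115 encode its subunits. The genes named for neurons and vesicle fusion had a median ratio of 1.11 over all cells together. It was 0.777 in high-ARS cells and 1.69 in the others, with the limit that cells can cross this line. In that group 1 of 8 entries rose and none fell, against 8.66% and 9.73% of all genes assessed. The gene that rose was an entry of SNAP-25, a membrane fusion protein of synapses, at 10.5 and 22.3 CPM (2.12, and 0.600 in high-ARS cells alone). The other SNAP-25 entry was at 9.06 and 9.84 CPM (1.09). The proneural ligand delta was at 41.7 and 44.2 CPM (1.06) and the vesicle protein VAMP at 474.4 and 570.8 CPM (1.203).

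**Figure D4:**
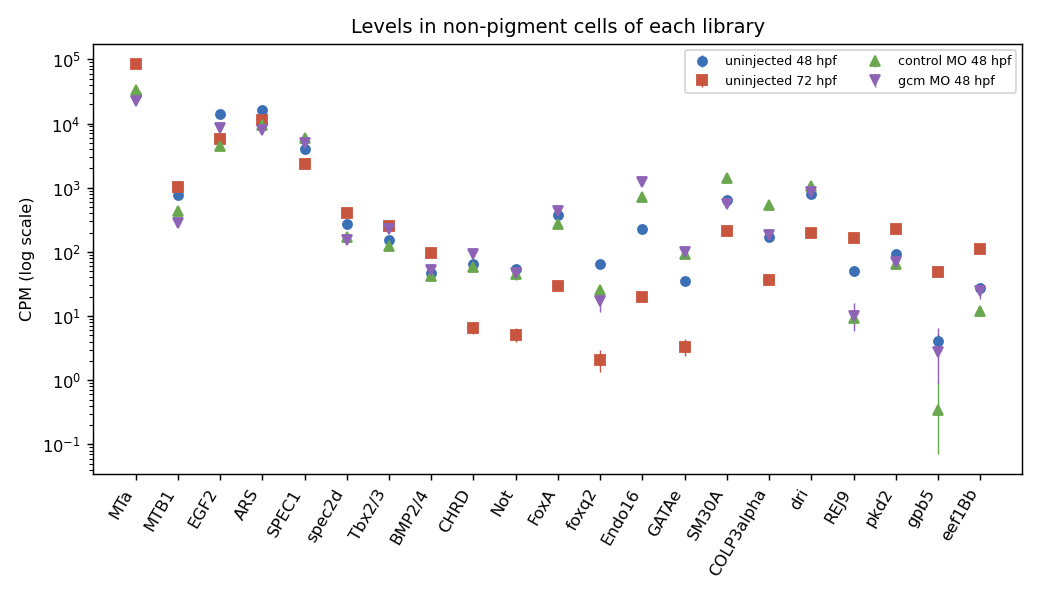
Summed level (y axis, CPM, log scale) of 21 genes in non-pigment cells of the uninjected 48 hpf (blue circles), uninjected 72 hpf (red squares), control MO 48 hpf (green) and gcm MO 48 hpf (purple) libraries, with exact Poisson 95% intervals as bars. For CHRD, Not, FoxA, foxq2, Endo16 and GATAe the 72 hpf square lies below all 3 libraries of 48 hpf, and for MTa, REJ9, gpb5 and eef1Bb above them.

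Gut genes had the lowest median ratio of the groups examined. Of 5 genes 4 fell, with a median ratio of 0.0906, and summed over the group the level went from 695.8 to 60.8 CPM (0.0873, 0.0813–0.0938). Endo16, a secreted protein of the gut wall, went from 228.2 to 19.6 CPM (0.0859), FoxA from 374.8 to 29.9 CPM (0.0797), GATAe from 35.4 to 3.28 CPM (0.0926) and blimp1/krox from 51.5 to 4.66 CPM (0.0906). FoxA, GATAe and blimp1/krox encode transcription factors that specify endoderm, and FoxA is also known from the oral ectoderm at the mouth. The whole embryos of the MO libraries had more Endo16, 717.7 (control MO) and 1224 CPM (gcm MO), than the ectoderm-enriched embryos of the same age. All 4 genes were below every 48 hpf library at 72 hpf.

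Fewer cells of a type and less RNA per cell cannot be told apart in summed counts, and single cells give a partial view of this. Cells in which the gut genes reached 3 UMIs and 0.3% of the UMIs numbered 255 of 4689 at 48 hpf, 5.44% (4.81–6.13), and 27 of 5976 at 72 hpf, 0.452% (0.298–0.657). Thinned to 500 UMIs per cell, where 3 UMIs are more than 0.3% of a cell and the line is thus stricter, the shares were 3.31% and 0.301%. Near the line, within 1.5-fold, lay 272 and 25 cells. Endo16 and FoxA are among the genes that chose these cells, so their levels inside and outside are set in part by the choice and are given as a description. Inside, Endo16 was at 3315 CPM at 48 hpf against 3370 at 72 hpf, a ratio of 1.02 (0.872–1.18). Outside them it was at 19.6 and 6.07 CPM (0.310). FoxA had a ratio of 0.561 inside and 0.109 outside, where 2973 and 328 of its UMIs were counted. Most UMIs of FoxA at 48 hpf therefore lay outside the cells high in gut genes. The enrichment for ectoderm can set the share of gut cells, and whether it removed more of the gut at 72 hpf was not tested.

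Of 6 skeletogenic genes assessed 2 fell and 4 stayed within 2-fold. SM30A, which encodes a protein of the spicule matrix, went from 652.6 to 208.9 CPM (0.320, 0.307–0.334), against 1439 (control MO) and 547.6 CPM (gcm MO). Alx1, the transcription factor that specifies these cells, had 121 and 30 UMIs, from 8.43 to 2.19 CPM (0.259, 0.168–0.389), and the ratio was 0.594 without skeletogenic and gut cells. The matrix genes SM50 (0.704), SM37 (0.605) and PM27 (0.578) and the surface glycoprotein gene msp130 (0.775) remained within 2-fold. For PM27 and SM37 the 72 hpf levels of 38.4 and 33.9 CPM were above those of the gcm MO library, 27.6 and 24.3 CPM. The list also held P16, with 30 and 42 UMIs (1.46), under the floor of UMIs. SM30A is itself one of the markers that chose the skeletogenic cells and holds most of their summed UMIs, so its split between cells is only a description. Within the 23 and 14 cells past the threshold it was at 94497 and 65744 CPM (0.696). Outside these few cells it was at 42.2 and 19.6 CPM (0.464). Reads of SM30A may be shared with other genes of its family.

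Of the collagen and SPARC genes, which encode proteins of the extracellular matrix, 6 of 7 entries fell, with a median ratio of 0.340. Apart from COLP1alpha and COLP2alpha the members were put in after values were seen. The count is therefore only a description beside the 9.73% of all genes assessed that fell. An entry of SPARC (osteonectin), a calcium-binding matrix protein, went from 422 to 108.1 CPM (0.256, 0.242–0.271). The other had 77 and 25 UMIs (0.340). COLP3alpha went from 168.9 to 36.6 CPM (0.217) and an entry of COLP4alpha from 72.7 to 15.9 CPM (0.219), both below all 48 hpf libraries. The other COLP4alpha entry had 87 and 45 UMIs (0.541) and stayed within 2-fold. COLP1alpha went from 310.4 to 123.8 CPM (0.399) and COLP2alpha from 80.4 to 31.3 CPM (0.390). For these 2 the gcm MO library was lower still, at 56.9 and 14.4 CPM, so that the 48 hpf libraries did not separate from the 72 hpf one. COLP3alpha was at 16035 and 9334 CPM in skeletogenic cells (0.582) and at 65.7 and 9.72 CPM outside them (0.148).

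Of the 18 transcription factors of endoderm and mesoderm 15 had enough UMIs to be assessed, and of these 7 fell and none rose, with a median ratio of 0.570. Among the genes under the floor of UMIs, ets1 had 22 and then 70 UMIs (3.33, 2.04–5.64), while GATAc had 55 and 11 and foxx 44 and 5. Of the genes that fell, 3 are the gut factors named above. The gene dri (deadringer), known from skeletogenic cells and the oral ectoderm, fell from 809 to 194.8 CPM (0.241, 0.231–0.251), against 1080 (control MO) and 844.9 CPM (gcm MO). Its ratio was 0.195 in high-ARS cells and 0.235 in the others. The EMT regulator snail went from 8.29 to 2.48 CPM (0.299) and fkh1 from 6.20 to 1.24 CPM (0.200). The homeobox gene otx was at 607.2 and 461.8 CPM (0.761) and hox1 at 193.5 and 142.1 CPM (0.734), both within 2-fold.

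Among signalling genes 6 of 18 fell and 1 rose, with a median ratio of 0.701. In addition to CHRD, the genes that fell were Hes, a transcriptional repressor downstream of Notch, from 94.1 to 30.5 CPM (0.324), and pofut1, the enzyme that adds fucose to Notch, from 14.8 to 6.19 CPM (0.417). The other genes that fell were the TGF-beta ligand gene DVR1, from 87.5 to 37.4 CPM (0.427), FGFRL1, an FGF receptor-like gene, from 131.5 to 60.1 CPM (0.457), and SFRP, a secreted Wnt-binding protein gene, from 8.64 to 3.21 CPM (0.371). Each of these was below all 48 hpf libraries at 72 hpf. The FGF receptor gene FGFR was at 330.7 and 383 CPM (1.16), Tcf/Lef, the transcription factor of Wnt signalling, at 28.1 and 42.5 CPM (1.51) and the syndecan gene Sdc at 4117 and 4270 CPM (1.04). The genes that fell thus came from several pathways, and other members of the same pathways kept within 2-fold.

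**Figure D5:**
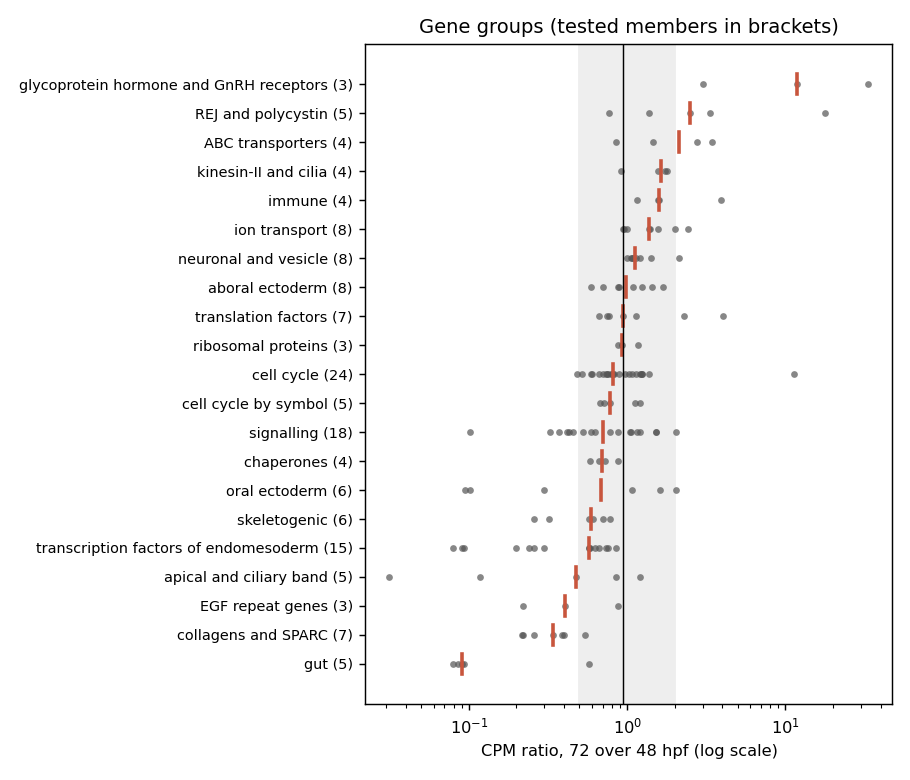
Ratio of CPM at 72 over 48 hpf (x axis, log scale) of each assessed member (grey points) of 21 gene groups, with the median of the group (red bar), the median of all genes (black line, 0.948) and the band within 2-fold shaded. The medians run from 0.0906 for gut genes to 11.8 for the hormone genes. The hormone group and most others apart from the marker groups were formed after values were seen.

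The genes with the highest group median encode hormone subunits, but this group was formed after values were seen, so its rank is only a description. All 3 assessed glycoprotein hormone entries rose. The beta subunit gene gpb5 had 59 UMIs at 48 hpf and 668 at 72 hpf, from 4.11 to 48.7 CPM (11.8, 9.06–15.7). It was at 0.339 (control MO) and 2.76 CPM (gcm MO). The alpha subunit gene gpa2 had 2 entries, of which the first had 9 and 288 UMIs, from 0.627 to 21.0 CPM (33.5, 17.4–73.9), and the second 28 and 81 UMIs (3.02). These are the 2 kinds of subunit of the hormone known in vertebrates as thyrostimulin. At 72 hpf 647 of the 668 gpb5 UMIs were in cells outside the high-ARS range, at 90.6 against 3.19 CPM within it. The gonadotropin-releasing hormone receptor entry gnrhr1 had 0 UMIs at 48 hpf and 27 at 72 hpf, too few to be assessed.

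Of the REJ and polycystin genes, a group also formed after values were seen, 3 of 5 assessed rose, with a median ratio of 2.48. This count is only a description beside the 8.66% of all genes assessed that rose. REJ proteins are known from sea urchin sperm as receptors for egg jelly and belong to the polycystin-1 family, and pkd2 encodes the polycystin-2 channel. REJ9 went from 49.5 to 165.3 CPM (3.34, 3.07–3.64), against 9.48 (control MO) and 9.95 CPM (gcm MO). REJ5 had 29 and 490 UMIs, from 2.02 to 35.7 CPM (17.7, 12.1–26.7), and pkd2 went from 92.6 to 229.6 CPM (2.48). REJ8 (1.38) and REJ7 (0.767) did not pass the fold. The 3 genes were higher outside the high-ARS range at both stages. There REJ9 was at 80.6 CPM at 48 hpf against 289 at 72 hpf (3.58), whereas in high-ARS cells it was at 20.4 and 31.1 CPM (1.53). In high-ARS cells alone pkd2 had a ratio of 1.74 and REJ5 of 4.25.

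Single genes of the transporter and immune groups rose, where 8.66% of all genes assessed rose. Of 8 ion transport genes 2 rose, the sodium bicarbonate cotransporter gene NBC from 114.8 to 230.7 CPM (2.01, 1.89–2.14) and the calcium exchanger gene NCKX from 8.50 to 20.6 CPM (2.43). The first passed the fold by a margin that its interval does not resolve, and its ratio was 1.97 with all cells of at least 200 genes. Of 4 ABC transporters 2 rose, abcb4 from 10.7 to 36.7 CPM (3.44) and ABCC9a from 3.21 to 8.89 CPM (2.77), while ABCB1 was at 144.5 and 122.7 CPM (0.849). Of 4 immune genes 1 rose, isg12, named as an interferon-stimulated gene, from 11.9 to 46.6 CPM (3.91, 3.30–4.66). The dual oxidase gene duox1 was at 446.9 and 703.3 CPM (1.57), above all 48 hpf libraries, and NFkB at 10.1 and 16.03 CPM (1.59). The groups had median ratios of 1.38, 2.11 and 1.58.

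The cell cycle genes were on the whole slightly lower at 72 hpf. Of 24 genes 1 fell and 1 rose, against 9.73% and 8.66% of all genes assessed. The group comprises genes that the study listed from these libraries for a pigment cell cluster, so it is no independent sample of the cell cycle. Its median ratio was 0.816, and summed over the group the level went from 3676 to 2995 CPM (0.815). LOC575965, cyclin-dependent kinase 1, went from 517.6 to 249.6 CPM (0.482, 0.463–0.502). It lost its call in 5 of 14 alternatives, among them scaling to the median ratio (0.509). Cyclin B (LOC576779), the partner of this kinase in mitosis, was at 153.7 and 79.9 CPM (0.520). Genes of DNA replication did not follow them, since DNA ligase 1 (LOC752989) was at 196.7 and 236.5 CPM (1.202) and the catalytic subunit of DNA polymerase alpha (LOC584095) at 53.1 and 57.3 CPM (1.08). The gene that rose, LOC584331, encodes a tubulin alpha-1 chain, a microtubule subunit. It had 75 and 810 UMIs, from 5.23 to 59.0 CPM (11.3, 8.91–14.5), against 2.48 (control MO) and 0.553 CPM (gcm MO).

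Cells in which these 24 genes reached 3 UMIs and 0.3% of the UMIs made up 42.6% (41.2–44.0) of non-pigment cells at 48 hpf and 35.4% (34.2–36.7) at 72 hpf. Thinned to 500 UMIs per cell, where 3 UMIs are more than 0.3% of a cell and the line is thus stricter, they made up 32.0% and 23.8%. Within 1.5-fold of the line lay 579 and 1081 cells. They overlapped the high-ARS range in 403 and 308 cells, and the median high-ARS cell held 0.0675% of its UMIs in these genes at each stage. The part of free RNA in these shares was not tested, and a share of cells past such a line does not measure division. The cyclin gene CycA was at 126.3 and 98.7 CPM (0.782) and cdk4 at 69.0 and 77.3 CPM (1.12). In the list of cell cycle genes by symbol none of 5 passed the fold, against 18.4% of all genes assessed.

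The ribosomal protein genes stayed within 2-fold, as did most genes assessed, and single translation genes rose. The 3 ribosomal protein genes lay between ratios of 0.873 (rps15a) and 1.17 (rpl36). Among 7 translation genes 2 rose, against 8.66% of all genes assessed. These were eef1Bb, a subunit of the elongation factor that loads tRNA, from 27.2 to 109.6 CPM (4.03, 3.61–4.52), and 4e-bp, the inhibitor that binds the cap-binding factor, from 20.2 to 46.4 CPM (2.30). The rise of eef1Bb was seen in high-ARS cells (4.57) and the others (3.67). The cap-binding gene eif4e1 (0.762), the helicase gene eif4a (0.745) and the gamma subunit gene eef1G (1.14) did not pass the fold. None of 4 chaperones of the endoplasmic reticulum and cytosol passed it, against 18.4% of all genes assessed. Their median ratio was 0.691, with calreticulin (calret) at 252.1 and 146.7 CPM (0.582). The histone variant gene H2A.F/Z, the only histone entry with UMIs in the non-pigment cells of the uninjected libraries, was at 2300 and 1678 CPM (0.730), and the germline helicase gene vasa at 39.5 and 22.9 CPM (0.579).

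The 12 highest and 12 lowest ratios among genes with at least 200 UMIs belonged to entries that the files name only by a LOC number. All 12 at the top were below 12 CPM in each 48 hpf library and above all 3 at 72 hpf. LOC576079 had 38 UMIs at 48 hpf and 5905 at 72 hpf, from 2.65 to 430.3 CPM (162, 118–230), and LOC579576 had 54 and 5941, from 3.76 to 432.9 CPM (115, 88.0–153). Both were thus low in the uninjected library of the earlier stage. LOC576079 was at 1.58 (control MO) and 2.76 CPM (gcm MO). LOC579576 was higher in the control MO library, at 11.6 CPM, and at 3.87 CPM in the gcm MO library. LOC576549 had 2 and 1201 UMIs, LOC763085 had 5 and 1423, and LOC100890505 had 14 and 1117. Others with fewer molecules at 72 hpf were LOC577387 (1 and 489 UMIs), LOC756286 (3 and 662), LOC578199 (2 and 426), LOC578016 (6 and 786) and LOC105443061 (3 and 241). For LOC100890834 and LOC105436997 no UMI was counted at 48 hpf. With 3 counts put in place of none, they were 100.4-fold and 91.7-fold higher at 72 hpf. The lower limits of their counting intervals were ratios of 81.1 and 74.0.

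These genes differed in which cells held them. Of the LOC576079 UMIs at 72 hpf, 62.2% lay in the 1% of cells with the most, and it was at 792.4 CPM outside the high-ARS range and at 37.7 CPM inside it. By contrast LOC753847, with its large gain in CPM, was at 3486 CPM inside the range and 702 CPM outside it. Both had few UMIs in skeletogenic cells at 72 hpf, 1 of LOC576079 and 10 of LOC753847.

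At the other end, LOC583821 had 2646 UMIs at 48 hpf and 24 at 72 hpf, from 184.4 to 1.75 CPM (0.00948, 0.00607–0.0141). It was at 67.4 (control MO) and 96.1 CPM (gcm MO). LOC105438846 went from 96.4 to 0.802 CPM (0.00832), LOC100888533 from 85.3 to 1.82 CPM (0.0214) and LOC100888863 from 71.3 to 1.31 CPM (0.0184). All 12 genes at this end were lower at 72 hpf than in each of the 3 libraries of 48 hpf. LOC105446926 had 419 UMIs and then 1, LOC752906 374 and then 1, and LOC100888446 615 and then 3. For LOC105445628, 214 UMIs were counted at 48 hpf and none at 72 hpf. With 3 counts put in place of none, it was 68.2-fold lower at 72 hpf. The upper limit of its counting interval was a ratio of 0.0182. The remaining 4, LOC100890520, LOC100893159, LOC105437779 and LOC583193, had ratios of 0.0152 to 0.0234.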

How the data were processed

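The authors counted UMIs per gene and cell with Cell Ranger (the matrix header gives version 3.1.0) on a custom reference (Spur_4.2), and the deposited values are these raw counts. Totals of the 4 libraries before any filter ran from 2298196 to 17172515 UMIs. Cells were filtered by the rule above, and UMIs were summed and scaled to CPM (Python 3.11.15, numpy 2.4.6, scipy 1.17.1). For fold values a count of 0 was replaced by 3 counts, or 0.209 (48 hpf) and 0.219 CPM (72 hpf), which is a convention and not a bound. The calculation was tested on simulated counts. Doublets were not removed in the values reported. Genes keep the symbols of the files. Products of cell cycle genes came from the study's supplement, and 253 of 260 other symbols were found in the Spur_5.0 gene table, which held no product names, so groups were formed by symbol. Groups and cells compared were chosen with earlier results of these data known. Most groups other than the marker groups, and some members of the marker groups, were set after values were seen. Named were the 12 highest and 12 lowest ratios (at least 200 UMIs), the 5 largest gains and losses in CPM and the outermost members of each group; others in the text were chosen after their values were seen. Alternatives were other scalings, floors, cell filters and subsets of cells.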

Additional observations from a re-analysis of the deposited data

How the results depend on the processing

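No paired analysis was possible because each stage was 1 library, and for the same reason no replicate could be left out. Of 14 alternatives, the counts of genes at least 2-fold higher at 72 hpf (911) and genes at least 2-fold lower at 72 hpf (1024) moved by over 1.5 times in the following. A floor of 20 UMIs gave 1907 and 2011 of 15895 genes, a floor of 500 UMIs 333 and 420 of 5044, and cells thinned to 500 UMIs 440 and 432 of 5185. In high-ARS cells only, 414 genes were higher and 813 lower of 7033, so that 33.7% of the calls were higher, against 47.1% in all cells, while the median ratio of all genes was 0.861. Scaling to the median ratio gave 1018 higher and 885 lower. Among named genes, 21 of 29 that rose and 26 of 30 that fell kept their call under every alternative. Of 50 within 2-fold, 35 stayed so, and 15 passed the fold in some setting, such as calret (0.376), msp130 (0.338) and MTB1 (2.16) in high-ARS cells and vasa outside them (0.382, and 1.45 inside). Called genes that lost it, in the subset of cells or setting named, were Alx1 (0.594 without skeletogenic and gut cells), COLP1alpha (0.690) and Hes (0.508) in high-ARS cells, NCKX (1.94 with cells of equal weight), LOC585870 (1.96 without cell cycle cells), 4e-bp (1.92 outside the high-ARS range), and BMP2/4, NBC, REJ9 and pkd2 as given above. SNAP-25 reversed to 0.600 in high-ARS cells. Cyclin-dependent kinase 1 (LOC575965) was at 0.509 under median scaling and reversed to 1.30 without cell cycle cells, which were chosen by this gene among others. Medians of gene groups moved in 20 of 349 comparisons, among them the oral ectoderm group, at 1.22 in high-ARS cells, the aboral group, at 1.80 outside them, and the gut group, at 0.264 without skeletogenic and gut cells. Depth limits genes with few UMIs, and 1 library per stage limits every value.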
